A study of Mus musculus with 10 samples.

Results

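Oxytocin (Oxt), arginine vasopressin (Avp) and 6 other genes of hypothalamic neuropeptides were followed through the cortical transcriptome of 5XFAD mice. The 8 genes, which are Oxt, Avp, Pmch, Hcrt, Trh, Pomc, Gal and Agrp, were chosen by symbol from 53700 gene identifiers, and all 8 were present in the counts. They were chosen with the comparison of the groups already in view, so their levels are given as a description and no p is given for them. How many of them passed the threshold is stated only beside the share of all genes, and nothing is read from it. Of the 8, 7 passed the filter on low counts, and Agrp was counted 0 times in all 10 libraries.

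The data are 3′ RNA-seq of cortex from 10 female mice aged 4 months. 5 libraries are labelled 5XFAD and 5 are labelled 5XFAD;Neu cKO, and each is 1 mouse of a genotype by the study's account. All 10 mice carry the 5XFAD transgenes, which are human amyloid precursor protein and presenilin genes with familial Alzheimer's disease mutations under Thy1 control. The 5XFAD;Neu cKO mice also carry floxed Idol and Camk2a-Cre, whose promoter is active mainly in excitatory forebrain neurons, and the 5XFAD mice were littermates labelled WT for the pair. Whether these littermates carried Cre alone or floxed Idol alone is not given in the sources used here. The comparison asks which transcripts differ when neurons lack IDOL. The cortex was dissected from the right hemisphere of perfused brains.

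Each of these genes encodes a precursor protein that is cut and modified in secretory granules to give small peptides. In the hypothalamus, oxytocin and vasopressin are made by magnocellular and parvocellular neurons of the paraventricular and supraoptic nuclei, and both reach the blood through the posterior pituitary. Melanin-concentrating hormone (from Pmch) and orexins (from Hcrt) come from separate neurons of the lateral hypothalamus, while proopiomelanocortin (Pomc) and agouti-related peptide (Agrp) mark arcuate neurons with opposite effects on feeding. These cell bodies lie outside the cortex, and in a bulk sample fewer cells of a type and less RNA per cell cannot be told apart.

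Oxt and Avp are neighbours on chromosome 2 of GRCm39. Oxt (ENSMUSG00000027301) lies at chr2:130418091-130418974 on the plus strand, Avp (ENSMUSG00000037727) at chr2:130422540-130424640 on the minus strand, and each has 3 exons. Their 3′ ends face each other across 3565 bases. The codons of the hormones themselves, in exon 1 of each gene, are shown because they show how close this gene pair is. The capitals mark the 27 bases of the 9-residue hormone, and the lower-case bases code for the glycine and basic pair at which the precursor is cut. They lie at chr2:130418187-130418222 for Oxt and at chr2:130424357-130424392 for Avp, and each is written 5′ to 3′ on the strand of its gene.
Oxt: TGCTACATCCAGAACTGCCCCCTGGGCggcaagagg
Avp: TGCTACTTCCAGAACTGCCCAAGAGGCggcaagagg
Counted from 1 at the 5′ end, Avp differs from Oxt by A7T, C21A, C22A, T23G and G24A.

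The transcripts also share a run of 127 bases without a difference, in the part that codes for the neurophysin carriers. It is shown because a read that lies inside it has a place in both genes.
Oxt and Avp shared run: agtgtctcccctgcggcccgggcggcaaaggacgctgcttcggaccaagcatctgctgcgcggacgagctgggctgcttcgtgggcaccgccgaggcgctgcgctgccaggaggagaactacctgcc
In both genes 125 of these bases are in exon 2 (chr2:130418511-130418635 in Oxt and chr2:130423053-130423177 in Avp) and the first 2 are in exon 1. The run ends 255 bases before the 3′ end of the Oxt transcript and 307 bases before that of Avp. Of the 464 windows of 76 bases in the Oxt transcript, 76 bases being the length of the reads before trimming, 52 also occur in Avp. Reads of that part cannot be assigned to either gene, so some reads of both may be missing from the counts, while the last 255 bases of Oxt lie outside the run.

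The promoters of this pair are shown because the levels of Oxt and Avp tended to move together over the libraries. Whether the promoters have a part in this was not tested. They are RefSeq sequences from a GRCm38.p6 table and match GRCm39 without a difference, at chr2:130417839-130418138 (plus strand) for Oxt and chr2:130424459-130424758 (minus strand) for Avp. Each holds 250 bases before the start that RefSeq gives and 50 after it. The GENCODE transcript of Avp begins 132 bases upstream of that start, inside the window, and that of Oxt begins 2 bases downstream of it, so positions below depend on the start used. Capitals mark the letters CATAAA, and TGACCT on either strand (AGGTCA when read on the opposite one), a sequence that nuclear receptors bind.
Oxt: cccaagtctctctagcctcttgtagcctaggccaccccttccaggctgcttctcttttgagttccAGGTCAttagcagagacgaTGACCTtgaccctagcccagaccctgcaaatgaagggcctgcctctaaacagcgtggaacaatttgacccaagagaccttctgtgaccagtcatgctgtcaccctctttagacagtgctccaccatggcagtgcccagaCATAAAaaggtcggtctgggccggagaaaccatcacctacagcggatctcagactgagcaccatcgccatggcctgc
Avp: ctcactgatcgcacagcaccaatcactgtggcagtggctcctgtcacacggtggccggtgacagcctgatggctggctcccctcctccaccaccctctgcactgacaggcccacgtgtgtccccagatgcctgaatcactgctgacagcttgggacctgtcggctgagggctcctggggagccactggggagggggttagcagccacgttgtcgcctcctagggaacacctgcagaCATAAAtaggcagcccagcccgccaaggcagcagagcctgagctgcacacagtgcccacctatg
CATAAA begins 27 bases before the start in Oxt and 14 before it in Avp, and was chosen after these sequences were seen. It occurs on either strand in 11.9% of the 32851 promoters of the table. TGACCT occurs in 16.3% of them. It is in the Oxt promoter at -166 on the same strand and at -185 on the opposite one, and its letters are not in this window of Avp. The standard TATAAA, which 13.6% of promoters hold, is in neither, but it is in those of Pmch (at -27), Hcrt (at -33) and Pomc (at -25). A promoter was found for 7 of the 8 genes. These matches are letters in a window and no measure of binding.

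Reads on genes numbered from 4320504 to 7466192 per library, so that 3 reads, the limit that a count of 0 allows, are worth 0.402 to 0.694 CPM (counts scaled to a common library size). That limit covers counting error only. Reads are listed for replicates 1 to 5 in this order throughout. Mylip, the gene that encodes IDOL, had 50, 53, 108, 50 and 45 reads in the 5XFAD libraries and 77, 78, 148, 112 and 50 in the 5XFAD;Neu cKO libraries (log2 fold change 0.39, standard error 0.25, edgeR). They were not lower in the 5XFAD;Neu cKO libraries, and reads from 3′ ends cannot tell whether a floxed exon was present. The groups are therefore named below by their labels. The markers of cortical excitatory neurons were present, with Slc17a7 at 186 ± 18.6 and 178 ± 3.83 CPM and Camk2a at 1864 ± 150 and 1781 ± 109 CPM in 5XFAD and 5XFAD;Neu cKO (SD, n = 5 each). Over all genes, 42 of 19268 passed an adjusted p of 0.05 in edgeR's quasi-likelihood test.

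Oxt and Avp were the most abundant of the 8 genes, and both had lower means in 5XFAD;Neu cKO. Levels are given as CPM scaled by edgeR's TMM factor. In a 3′ library each transcript gives reads near its end only, so counts do not grow with length and genes can be compared. Oxt, which encodes the hormone of milk ejection and labour, had 72, 146, 195, 16 and 134 reads in the 5XFAD libraries and 66, 0, 31, 17 and 9 in the 5XFAD;Neu cKO libraries. 5XFAD replicates 1, 2, 3 and 5 were above all libraries labelled 5XFAD;Neu cKO, while 5XFAD replicate 4 lay among them. Oxt was at 21.6 ± 12.9 CPM in 5XFAD and 4.11 ± 4.85 CPM in 5XFAD;Neu cKO (SD, n = 5 each), or -2.40 ± 0.43 (SE) as a log2 fold change.

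Avp, which encodes the antidiuretic hormone, had 39, 62, 108, 47 and 76 reads in the 5XFAD libraries and 52, 18, 53, 14 and 9 in the 5XFAD;Neu cKO libraries. It was at 12.5 ± 4.13 CPM in 5XFAD and 4.73 ± 3.51 CPM in 5XFAD;Neu cKO (SD, n = 5 each), or -1.41 ± 0.35 (SE) as a log2 fold change. Of the libraries labelled 5XFAD;Neu cKO, 4 lay below the lowest 5XFAD library, which was replicate 1 at 7.56 CPM. The fifth, replicate 1, was at 9.72 CPM and lay within the range of 5XFAD.

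**Figure D1:**
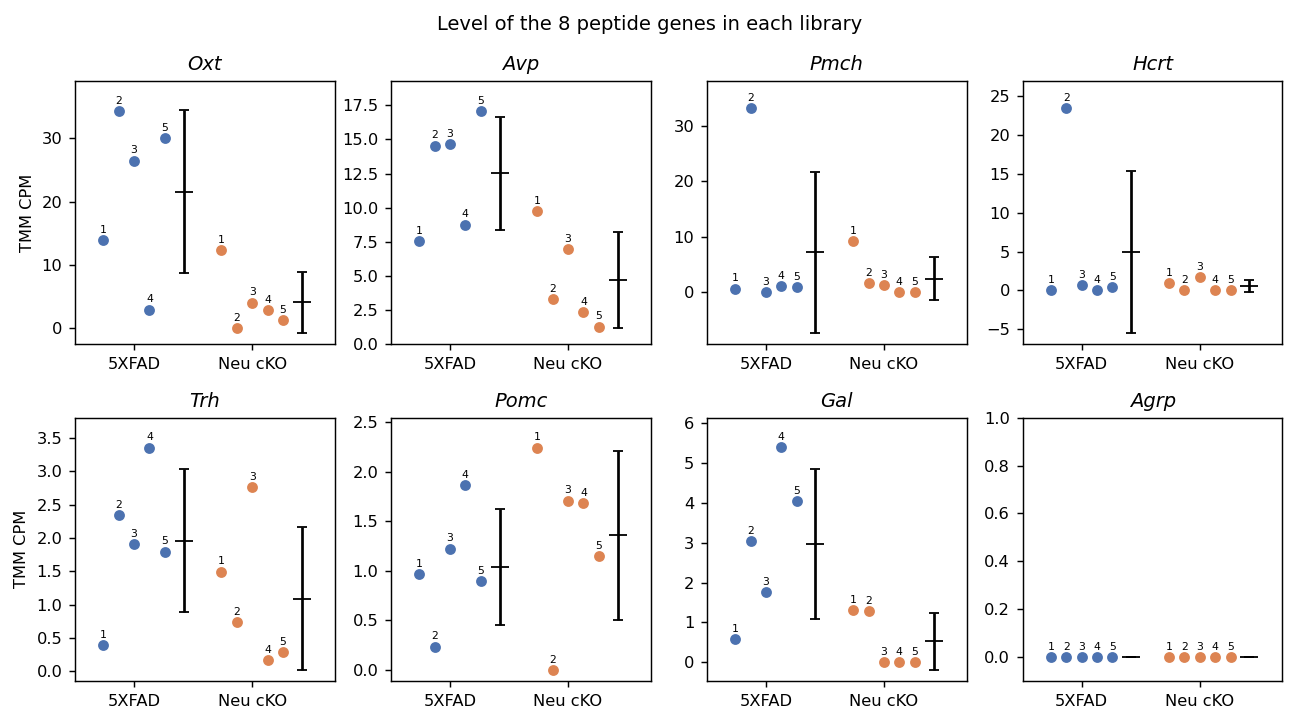
Level of each gene in TMM-scaled CPM (y axis, a separate scale for each gene) in the 5 libraries labelled 5XFAD (blue) and the 5 labelled 5XFAD;Neu cKO (orange). Points are libraries with their replicate number, and black bars give the mean ± SD. Oxt falls from a mean of 21.6 to 4.11 CPM and Avp from 12.5 to 4.73. The 5XFAD means of Pmch and Hcrt rest on 5XFAD replicate 2, and the 5XFAD;Neu cKO mean of Pmch mostly on replicate 1.

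Within each group the libraries differed widely. In 5XFAD, Oxt ran from 2.98 to 34.3 CPM and Avp from 7.56 to 17.1 CPM. In 5XFAD;Neu cKO, Oxt ran from 0 to 12.3 CPM and Avp from 1.29 to 9.72 CPM, and replicate 1 was the highest of the group for both genes. Without that library the log2 fold change of Oxt was -3.32 and that of Avp -1.82. The biological coefficient of variation of Oxt was 0.43, where the 5039 genes within 2-fold of its level had a median of 0.25 and 99.9% of them a lower value. For Avp it was 0.35 against a median of 0.29.

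The share of Oxt in the reads on Oxt and Avp also differed between libraries. It was 64.9%, 70.2%, 64.4% and 63.8% in 5XFAD replicates 1, 2, 3 and 5, values whose 95% exact binomial intervals overlap. In 5XFAD replicate 4 it was 25.4% (interval 15.3% to 37.9%, 63 reads), below the intervals of the other 4. In 5XFAD;Neu cKO replicates 1 to 5 the share was 55.9%, 0%, 36.9%, 54.8% and 50.0%. Replicate 2 had 0 of 18 reads on Oxt, with an upper limit of 18.5%, which is below the lower bound of replicate 1 (46.5%) and of replicate 3 (26.6%). Avp was thus counted in every library, while Oxt was missing from 1 and low in another without a like fall of Avp. The mean share was 57.7% ± 18.3 in 5XFAD and 39.5% ± 23.4 in 5XFAD;Neu cKO (SD, n = 5 each), and the groups overlapped.

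**Figure D2:**
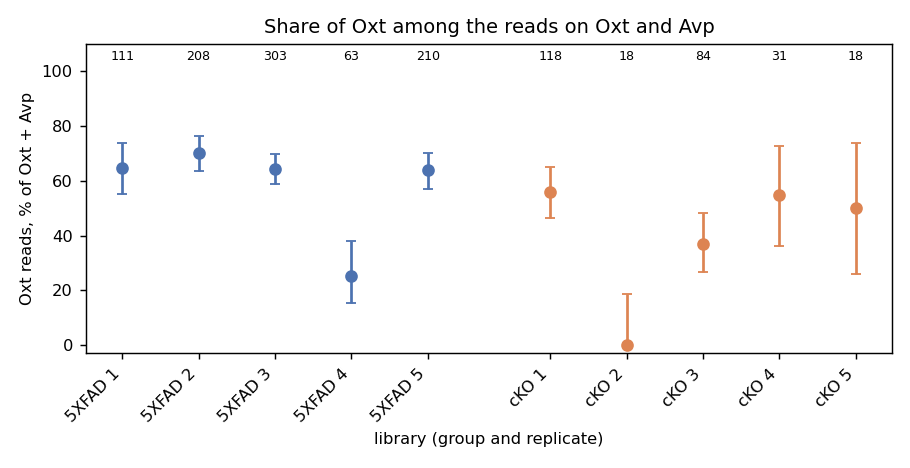
Reads on Oxt as a percentage of the reads on Oxt and Avp (y axis) in each library (x axis), blue for 5XFAD and orange for 5XFAD;Neu cKO. Bars are 95% exact binomial intervals, which cover counting error only, and the number at the top is the sum of reads. The lowest shares are those of 5XFAD replicate 4 (25.4%) and 5XFAD;Neu cKO replicate 2 (0%). The interval of 5XFAD replicate 4 overlaps those of 5XFAD;Neu cKO replicates 2, 3, 4 and 5.

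The lateral hypothalamic peptides showed a different pattern, in which 1 library held most of the reads. Pmch had 3, 142, 0, 6 and 4 reads in the 5XFAD libraries and 49, 9, 9, 0 and 0 in the 5XFAD;Neu cKO libraries. Hcrt was counted 0, 100, 5, 0 and 2 times, and 5, 0, 13, 0 and 0 times, in the same order. 5XFAD replicate 2 thus held 64.0% of the 222 reads on Pmch (95% exact binomial interval 57.3% to 70.3%) and 80.0% of the 125 reads on Hcrt (71.9% to 86.6%). For Pmch the next highest library was 5XFAD;Neu cKO replicate 1, in which Hcrt was counted 5 times.

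The 5XFAD means of these genes carry that library. The 5XFAD;Neu cKO mean of Pmch rests mostly on replicate 1 of that group, with 49 of 67 reads. Pmch was at 7.18 ± 14.6 CPM in 5XFAD and 2.40 ± 3.85 CPM in 5XFAD;Neu cKO (SD, n = 5 each), with medians of 0.898 and 1.18 CPM. Hcrt was at 4.92 ± 10.4 and 0.528 ± 0.773 CPM, with medians of 0.449 and 0 CPM. The log2 fold changes were -1.58 (standard error 0.78) for Pmch and -3.09 (standard error 0.94) for Hcrt. Without 5XFAD replicate 2 they turned to 1.88 and 0.84, so neither gene has a direction that holds without that library. Pmch (chr10:87926933-87928237, plus strand) lies inside Parpbp, a gene of the opposite strand that was counted 20 times in all. Hcrt lies at chr11:100651895-100653762 on the minus strand.

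**Figure D3:**
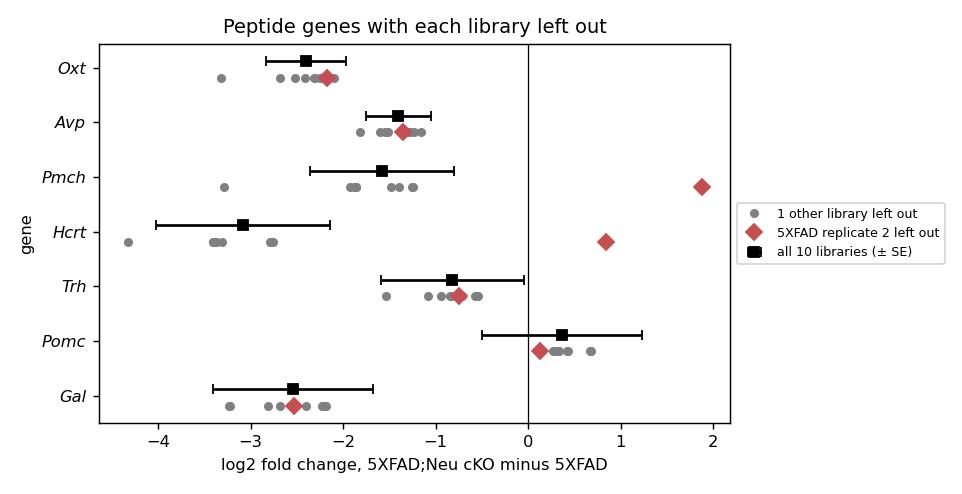
Log2 fold change of 5XFAD;Neu cKO against 5XFAD (x axis) for the 7 genes with enough reads (y axis). Black squares use all 10 libraries and their bars are standard errors, grey circles leave out 1 other library each, and red diamonds leave out 5XFAD replicate 2; the diamonds of Pmch (1.88) and Hcrt (0.84) lie on the other side of 0 from the squares.

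Trh, Gal and Pomc were near the limit of detection. Gal, which encodes galanin, had 3, 13, 13, 29 and 18 reads in the 5XFAD libraries and 7, 7, 0, 0 and 0 in the 5XFAD;Neu cKO libraries, or 2.97 ± 1.89 and 0.519 ± 0.711 CPM (SD, n = 5 each; log2 fold change -2.54, standard error 0.86). 5XFAD replicates 2 to 5 were above all libraries labelled 5XFAD;Neu cKO, and replicate 1 lay within their range. Its highest library was 5XFAD replicate 4, the one in which Oxt was lowest among 5XFAD. Gal lies at chr19:3459912-3464881 on the minus strand.

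Trh encodes thyrotropin-releasing hormone, which drives thyroid-stimulating hormone. It had 2, 10, 14, 18 and 8 reads in the 5XFAD libraries and 8, 4, 21, 1 and 2 in the 5XFAD;Neu cKO libraries (1.96 ± 1.07 and 1.09 ± 1.07 CPM, SD, n = 5 each), a log2 fold change of -0.82 that is about as large as its standard error of 0.77. The groups overlapped, and the library with the most reads was 5XFAD;Neu cKO replicate 3. Trh lies at chr6:92219021-92221631 on the minus strand.

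Pomc is the precursor of melanocortins and beta-endorphin, and its mean was higher in 5XFAD;Neu cKO. It had 5, 1, 9, 10 and 4 reads in the 5XFAD libraries and 12, 0, 13, 10 and 8 in the 5XFAD;Neu cKO libraries (1.04 ± 0.589 and 1.36 ± 0.851 CPM, SD, n = 5 each), or 0.37 ± 0.86 (SE) as a log2 fold change. 5XFAD replicate 2, where Pmch and Hcrt were highest, had 1 read on Pomc. Pomc lies at chr12:4004944-4010642 on the plus strand.

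Agrp, whose peptide is an antagonist of the melanocortin receptors, was at 0 in every library, below 0.402 to 0.694 CPM. Its annotated gene lies at chr8:106293326-106364065 on the minus strand. The 3′ end of Agrp lies inside the span of Gm38250 (chr8:106292695-106321066), a gene of the opposite strand that was counted 2 times in all. Agrp also overlaps Gm5914 on its own strand and Ripor1 and Ctcf on the opposite one, but these lie far upstream of its 3′ end. In its usual mode htseq-count gives a read that lies on several genes to none of them. Overlap was examined here by the span of the genes and not by their exons. Whether it affects the 0 of Agrp is therefore unknown, and that 0 is uncertain.

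In 5XFAD the order of mean levels was Oxt, Avp, Pmch, Hcrt, Gal, Trh, Pomc and Agrp, and each neighbouring pair from Oxt to Pomc had overlapping ranges over the 5 libraries. In 5XFAD;Neu cKO it was Avp, Oxt, Pmch, Pomc, Trh, Hcrt, Gal and Agrp, again with overlap between neighbours down to Gal. Of the 7 genes fitted, 6 had a negative log2 fold change, and the median was -1.58, beside 50.1% of all genes tested and a median of -0.00056. Oxt alone passed the threshold on adjusted p, where 0.218% of all genes tested did, and 0 of the 7 had groups that did not overlap, where 1.30% of all genes did. Since the genes were picked from this contrast, nothing is read from these counts.

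**Figure D4:**
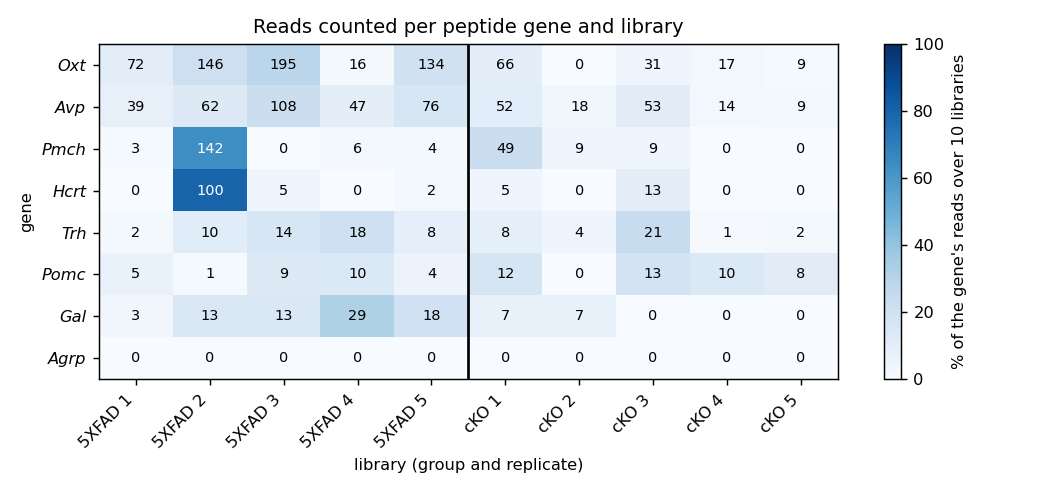
Reads counted on each gene (rows, number in each cell) in each library (columns, the line separates 5XFAD from 5XFAD;Neu cKO, shortened to cKO). The shade is the percentage of the gene's reads over the 10 libraries that the library holds; 5XFAD replicate 2 holds 80.0% of Hcrt and 64.0% of Pmch, while Oxt and Avp spread over most libraries.

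Over the 10 libraries, log2 CPM of Oxt and Avp moved together, with a Pearson's r of 0.80 (Spearman's rho 0.87), and r was 0.86 without the 2 libraries farthest from the median of Oxt. Avp also followed Trh (r = 0.76) and Gal (0.74), which fell to 0.44 and 0.46 without the 2 libraries farthest from the median of Avp. Pmch and Hcrt had an r of 0.77, which was 0.14 without 5XFAD replicate 2 and 5XFAD;Neu cKO replicate 1. Oxt with Pmch had 0.30 and Oxt with Pomc 0.26. These points share the difference between the groups and the depth of each library, and r is a description of 10 libraries.

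Among 15217 other genes with a mean of at least 1 CPM, the nearest to Oxt in log2 CPM were Pex5l (r = 0.95), Gabbr1 (0.94), Gm5781 (0.93), Cntn1 (0.92) and A730060N03Rik (0.92), and without the 2 libraries farthest from the median of Oxt these were 0.91, 0.87, 0.87, 0.86 and 0.85. Avp was the 108th. The nearest to Avp were Bcan (0.97), Rtn4 (0.94), Cntnap4 (0.93), Scn2b (0.93) and Wdr76 (0.93), or 0.91, 0.85, 0.88, 0.92 and 0.86 without the 2 farthest libraries, and Oxt was the 97th, Trh the 186th and Gal the 246th. None of the 10 nearest genes passed the test between the groups (adjusted p from 0.436 to 0.829, edgeR). None of the other hypothalamic peptides was among the nearest 5 genes of either. The nearest genes were picked for the highest r among 15217 over only 10 libraries, so their r is high by choice. The values without the 2 farthest libraries come from the same libraries and are no independent check.

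No gene of a peptide receptor passed the test between the groups. Of 17 receptor genes, 13 were tested and 0 passed, also with DESeq2, and 0 had an unadjusted p under 0.05 in edgeR, which 1532 of all genes tested had (7.95%). Of the 13, 9 had a negative log2 fold change and the median was -0.29. The oxytocin receptor Oxtr was at 5.68 ± 2.40 CPM in 5XFAD and 5.52 ± 1.62 CPM in 5XFAD;Neu cKO (SD, n = 5 each; log2 fold change -0.03, standard error 0.37, adjusted p = 0.995, edgeR). Avpr1a, the vasopressin receptor of brain and vessels, was counted 0 to 2 times per 5XFAD library and 0 to 5 times per 5XFAD;Neu cKO library (adjusted p = 0.907, edgeR). Avpr1b and Avpr2 were at 0 in all 10 libraries. The receptor of melanin-concentrating hormone, Mchr1, was at 13.9 ± 3.77 and 13.3 ± 1.81 CPM (adjusted p = 0.986) and that of TRH, Trhr, at 5.84 ± 2.41 and 3.58 ± 1.21 CPM (adjusted p = 0.734; edgeR, SD, n = 5 each). The signs of Oxtr and Mchr1 changed when CPM were scaled by library totals alone, which moves the median of all genes by 0.087.

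The enzymes and granule proteins that turn precursors into peptides are common to many neurons and were abundant here. Of the 14 maturation genes 0 passed the threshold, also with DESeq2, and 5 had an unadjusted p under 0.05 in edgeR, beside 7.95% of all genes tested. These were Scg5, Chgb, Scg3, Pcsk1n and Chga, all with negative log2 fold changes, and all but Chgb were named after their values were seen. Cpe, the carboxypeptidase that trims basic residues, was at 1168 ± 60.2 CPM in 5XFAD and 1079 ± 54.4 in 5XFAD;Neu cKO (adjusted p = 0.730). The convertase Pcsk2 was at 614 ± 58.1 and 643 ± 74.3 CPM (adjusted p = 0.929), and the granin Chgb at 511 ± 30.3 and 441 ± 38.8 CPM (SD, n = 5 each; log2 fold change -0.21, adjusted p = 0.406), with no overlap between the groups.

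Scg5, the chaperone of Pcsk2, was named after its values were seen. It had 1045, 2533, 4635, 2805 and 1026 reads in the 5XFAD libraries and 2924, 1001, 1465, 1309 and 1286 in the 5XFAD;Neu cKO libraries. 4 libraries were high, which were 5XFAD replicates 2, 3 and 4 and 5XFAD;Neu cKO replicate 1. As a log2 fold change this was -0.72 ± 0.20 (SE, adjusted p = 0.130, edgeR), and over the alternatives the adjusted p ran from 1.01e-14 with a replicate block to 0.827 with a robust fit.

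Of 5 genes of peptide breakdown 0 passed, also with DESeq2, and none had an unadjusted p under 0.05 in edgeR (0 of 5). Lnpep, the aminopeptidase known as oxytocinase, was at 120.0 ± 17.5 CPM in 5XFAD and 115 ± 7.73 in 5XFAD;Neu cKO (adjusted p = 0.965). Nln was at 31.6 ± 2.84 and 29.6 ± 6.46 CPM (adjusted p = 0.961), and Trhde, the enzyme that breaks down TRH, at 12.1 ± 4.24 and 10.8 ± 2.72 CPM (adjusted p = 0.950; edgeR, SD, n = 5 each).

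Other hypothalamic genes were examined as further markers of that tissue. Of 11 other hypothalamic peptides found in the counts, 6 were tested and 0 passed, also with DESeq2, with 0 at an unadjusted p under 0.05 in edgeR and a median log2 fold change of -0.11. Cartpt was at 28.3 ± 5.35 CPM in 5XFAD and 26.2 ± 1.63 in 5XFAD;Neu cKO (adjusted p = 0.958), and Crh, which cortical interneurons also express, at 19.0 ± 2.02 and 16.0 ± 3.50 CPM (adjusted p = 0.865). Gnrh1 was at 1.05 ± 1.04 and 1.93 ± 1.11 CPM (adjusted p = 0.886; edgeR, SD, n = 5 each).

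Transcription factors and enzymes of hypothalamic neurons were low. Of 15 such genes 6 were at 0 in all libraries, 7 were tested and 0 passed, also with DESeq2, with a median log2 fold change of -0.19 and 1 of the 7 at an unadjusted p under 0.05 in edgeR, beside 7.95% of all genes tested. That gene was Hmx3, also named after its values were seen, with 0, 5, 0, 2 and 4 reads in the 5XFAD libraries and 0 in each library labelled 5XFAD;Neu cKO. Otp, a factor of oxytocin and vasopressin neurons, was counted 0, 0, 4, 3 and 4 times and 17, 2, 14, 7 and 6 times (adjusted p = 0.722, edgeR), the opposite direction to Oxt and Avp. Sim1, another factor of these neurons, was at 0.787 ± 0.672 and 0.811 ± 0.837 CPM (adjusted p = 0.998; edgeR, SD, n = 5 each). Foxb1, of the mammillary region, was counted 16 times in 5XFAD replicate 2, where Pmch and Hcrt were highest, and 0 to 10 times in each other library (adjusted p = 0.967, edgeR). Summed over the 15 genes, the level was 2.33 to 8.45 CPM in 5XFAD and 3.37 to 6.73 CPM in 5XFAD;Neu cKO, with overlap between the groups. The highest 5XFAD library was replicate 2 and the highest 5XFAD;Neu cKO library was replicate 1. These sums rest largely on 1 or 2 genes. Foxb1 gave 16 of the 36 reads in 5XFAD replicate 2. Otp gave 17 and Foxb1 8 of the 36 reads in 5XFAD;Neu cKO replicate 1. A rise of the list as a whole is therefore not shown.

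Markers of tissue that borders the cortex were set beside these values. Pituitary genes were near 0, with 41 reads on Prl, 5 on Gh and 1 on Cga in 5XFAD replicate 1, 2 on Prl in 5XFAD;Neu cKO replicate 3 and 0 elsewhere, and 5 of the 8 pituitary genes were at 0 in every library. Summed levels were 45.4 to 66.9 CPM in 5XFAD and 46.8 to 59.4 CPM in 5XFAD;Neu cKO for 7 thalamic genes, 38.2 to 53.0 and 37.2 to 47.3 CPM for 6 basal forebrain genes, and 625 to 858 and 596 to 944 CPM for 9 striatal genes. Choroid plexus genes ranged from 34.1 to 79.5 and from 13.8 to 144 CPM, and brainstem genes from 0 to 0.581 and from 0 to 2.52 CPM. Hippocampal genes summed to 25.4 to 39.7 and 21.7 to 34.4 CPM, olfactory bulb genes to 4.10 to 10.1 and 3.74 to 12.7 CPM, and 11 cortical genes to 2536 to 2981 and 2589 to 2827 CPM. In all these lists the sums of the groups overlapped, and 0 genes passed in edgeR or DESeq2. At an unadjusted p under 0.05 in edgeR were 1 pituitary gene (Prl) and 1 cortical gene (Neurod2, named after its values were seen), beside 7.95% of all genes tested. Neurod2 was at 87.6 ± 5.28 CPM in 5XFAD and 109 ± 11.2 in 5XFAD;Neu cKO, with no overlap between the groups (SD, n = 5 each; log2 fold change 0.32, adjusted p = 0.274, edgeR).

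**Figure D5:**
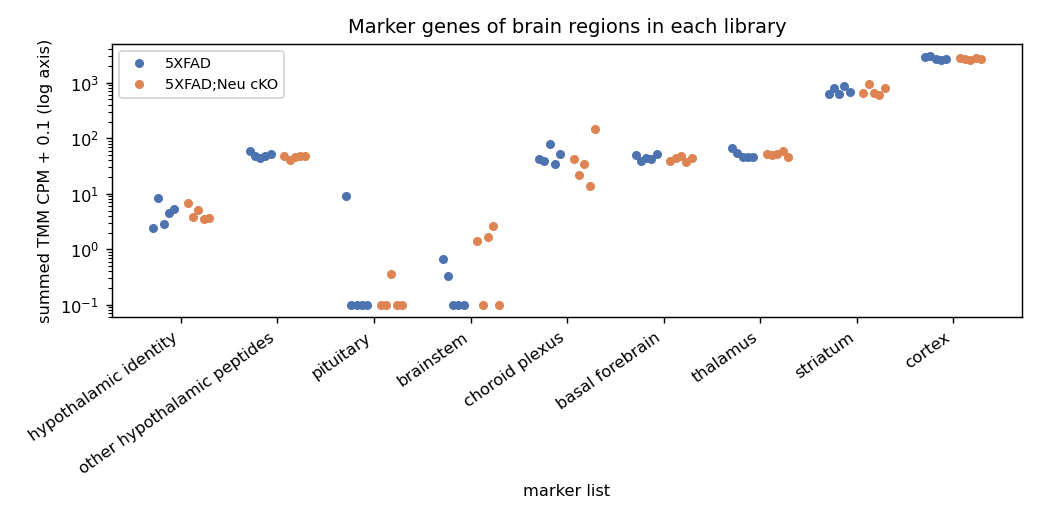
Summed TMM-scaled CPM plus 0.1 (y axis, log scale) of marker genes of brain regions and neighbouring tissue (x axis), 1 point per library, blue for 5XFAD and orange for 5XFAD;Neu cKO. The hypothalamic identity genes lie at 2.33 to 8.45 and 3.37 to 6.73 CPM, with overlap between the groups, and cortical genes at 2536 to 2981 and 2589 to 2827 CPM.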

How the data were processed

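The authors prepared 3′ libraries with a QuantSeq FWD kit from cortex of 10 female mice, sequenced single reads of 76 bases, trimmed adapters and poly(A) tails, aligned to GRCm39 with STAR 2.7.3a and counted reads per Ensembl gene with HTSeq (0.9.1 in the submitters' processing notes; the methods name another version). The deposited values are raw counts per gene and library, without normalization; the strand setting of the counting is not given in the sources used here, so overlapping and antisense genes are uncertain. Between 31.3% and 39.9% of reads counted on a gene or on none fell on no gene and were left out.

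Counts were fitted in R 4.3.3 with edgeR 4.0.16 (TMM, quasi-likelihood test, condition only) on genes counted more than 10 times over all libraries, the filter of the study, which left 19268 genes. Adjusted p is Benjamini-Hochberg's over all of them, with a threshold of 0.05, and n is 5 libraries per group. The standard error of a log2 fold change was derived from the quasi-likelihood test. It is the absolute log2 fold change divided by the square root of the F statistic, so it is no separate measure of spread. Symbols and places came from GENCODE release 39 for mouse, which named 52610 of 53700 identifiers. Of 129 listed symbols 1 was not found. Exact binomial intervals were computed in scipy 1.17.1. The steps were tested on simulated counts. Named genes are the 8 members, Mylip, listed genes past the threshold, the 3 most abundant genes of each list, the receptors of Oxt and Avp, and the 5 genes most like Oxt and like Avp. Scg5, Scg3, Pcsk1n, Chga, Hmx3 and Neurod2 fall outside this rule and were named after their values were seen, and so were genes that overlap a member. Thalamic, striatal, basal forebrain, hippocampal, olfactory bulb, brainstem and choroid plexus genes are given as list sums, apart from Ttr. The members, lists and rule were chosen with earlier results of these data known. Alternatives were DESeq2 1.42.0, its size factors in edgeR, library totals alone, filterByExpr, no filter, a robust fit, no mitochondrial genes, a replicate block and each library left out.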

Additional observations from a re-analysis of the deposited data

Results flagged for a closer look

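A library was examined against the other 4 of its group by its gap to the nearest one over the range of the group (Dixon's test, 95% critical value), in 78 groups of 5, and 12 stood apart. Chance flags about 1 in 20 groups only where values are normally distributed. Several groups here hold low counts, and single genes recur in the sums of their lists, so that rate does not apply. The 12 are therefore given as a description, and no excess over chance is read from them.

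Among the peptides, Pmch was at 33.3 CPM in 5XFAD replicate 2, where the other 4 lay at 0 to 1.12 CPM, and at 9.16 CPM in 5XFAD;Neu cKO replicate 1, where the others lay at 0 to 1.66 CPM. Hcrt was at 23.5 CPM in 5XFAD replicate 2 (others 0 to 0.679 CPM), and so was Foxb1 at 3.75 CPM (others 0 to 0.679 CPM). Neither Oxt nor Avp had a library that stood apart in this way.

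Among the other genes, Mchr1 was low in 5XFAD;Neu cKO replicate 3 (10.1 CPM, others 13.8 to 14.3), Trhr was low in replicate 2 (1.47 CPM, others 3.70 to 4.49), Cartpt was high in replicate 5 (29.0 CPM, others 25.0 to 25.9) and Scg5 was high in replicate 1 (547 CPM, others 184 to 220 CPM). The summed peptide receptors were high in 5XFAD;Neu cKO replicate 1 (45.4 CPM, others 30.3 to 34.3). Pituitary genes summed to 9.11 CPM in 5XFAD replicate 1 and 0.263 CPM in 5XFAD;Neu cKO replicate 3, with the others of each group at 0, so that any value above 0 would stand apart in these 2 groups, and the second is 2 reads. Choroid plexus genes summed to 143.9 CPM in 5XFAD;Neu cKO replicate 5 (others 13.8 to 42.8 CPM), where Ttr alone gave 925 of the 1002 reads.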

How the results depend on the processing

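Of the 7 peptide genes fitted, Oxt, Avp, Trh, Gal and Pomc kept their sign under every alternative that could be fitted, with Oxt from -3.32 to -2.10 and Avp from -1.82 to -1.16 as each library was left out. 6 genes had a negative log2 fold change, 4 to 6 with a library left out, and 3 with filterByExpr, which removed the others. Leaving out libraries moved Pmch from -3.29 to 1.88, Hcrt from -4.33 to 0.84, Mchr1 from -0.20 to 0.0499, Oxtr from -0.19 to 0.23, Lnpep from -0.11 to 0.0131, Nln from -0.19 to 0.0132, Trhde from -0.32 to 0.00959, Cartpt from -0.19 to 0.00122, Foxb1 from -1.16 to 0.94 and Sim1 from -0.60 to 0.47. With library totals alone Mchr1 (0.0156), Oxtr (0.0578) and Lnpep (0.0255) changed sign. Over all genes, 42 passed, 103 without a filter, 73 with DESeq2, and 26 (without 5XFAD replicate 2) to 72 (without 5XFAD;Neu cKO replicate 1) with a library left out. Of the maturation and breakdown genes, 1 (Scg5) passed without a filter and 0 to 1 with a library left out (1 without 5XFAD replicate 1 or 5, or without 5XFAD;Neu cKO replicate 1). The causes were not tested.

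Replicate numbers did not pair the libraries (correlations of deviations from -0.03 to 0.01 over 15218 genes). With a replicate block 112 genes passed, 1 of them (Scg5) among the maturation and breakdown genes, Oxt was at -2.51, Avp at -1.59, Pmch at -0.68 and Hcrt at -1.01, and Oxtr (0.00103) and Sim1 (-0.31) changed sign. Counts of 0 to 3 in Pmch, Hcrt and Gal limit what these depths can show.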
